A study of Mus musculus with 25 samples.

Results

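Satb1 lies on the minus strand of mouse chromosome 17 (GRCm39, chr17:52043114-52140622, 97509 bp, ENSMUSG00000023927.17), between Tbc1d5, whose nearest end is 556690 bp away, and Kcnh8, whose nearest end is 768648 bp away. Chromatin accessibility around it was read from 12 of the 13527 peaks of an ATAC-seq count table. They are the peaks whose midpoint has the Satb1 start as the nearest start of a protein-coding gene (GENCODE vM39) or lies inside the gene, which does not show that a peak acts on Satb1. In ATAC-seq a transposase inserts sequencing adapters into accessible DNA, and a peak is an interval where such cuts pile up. The locus was chosen by measured values of these data, the lower counts of peaks near Satb1 in S+P C5, a subset explained in what follows, against Sensitized, N+P C5 and S+P C4. Those 3 comparisons are therefore described with fold changes, and their counts of peaks past the thresholds are descriptions from which nothing is read. The other 10 comparisons were tested, but 9 of them, all but N+P C1 against Naive, use libraries that took part in the choice and are not independent of it.

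SATB1 is a nuclear protein that binds AT-rich DNA and organizes chromatin into loops. It is abundant in thymocytes, is needed for normal T cell development, and is known as a repressor of Pdcd1, the gene of the inhibitory receptor PD1. Genes of this kind are often served by elements that lie far upstream, and these appear in ATAC-seq as distal peaks.

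The cells were CD8+ T cells of female C57BL/6 mice, pooled from spleen and lymph nodes and sorted with a tetramer that binds T cells specific for an OVA peptide. Fetuses were sired by 2W-OVA.BALB/c males and skin grafts came from the same OVA-bearing strain, so these fetus/graft-specific cells (TFGS) recognize an antigen of fetus and graft. Naive mice had neither graft nor pregnancy (3 libraries), and Sensitized mice had rejected a skin graft without being mated (4 libraries). N+P mice went through pregnancy without a graft and S+P mice after one, and their cells were taken after birth and sorted by PD1 and the ectoenzyme CD73. C1 of N+P mice and C4 of S+P mice are PD1-, C5 is PD1+CD73+ and C7 is PD1+CD73-. Both N+P subsets had 3 libraries and the 3 S+P subsets had 4. No transgene or deletion is given for the mice whose cells were measured. The labels give no age and do not state which libraries share an animal, so a p-value measures spread between libraries, not between animals. That spread is estimated for each peak over all 25 libraries, not only over the groups compared. The sort follows 1 tetramer, so other fetus-specific cells were not measured, and the Naive and Sensitized libraries are not labelled as split by PD1.

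The 25 libraries held between 2430890 (S+P C4 1) and 25419715 (S+P C5 1) counts in peaks. Of the CD8 T cell genes Cd3e, Cd3d, Cd3g, Cd8a, Cd8b1 and Thy1, 4 of 6 had a peak within 1000 bp of one of their starts, and their summed normalized count ran from 1498 to 2587 over the libraries. None of the 2 CD4 T cell, 3 B cell, 3 myeloid and 2 NK cell genes looked up had such a peak. Over all peaks other than the 12, 4 libraries of the Naive, Sensitized and S+P groups lay nearer to an N+P group than to their own group (Pearson's r of log2 values across peaks). These were Naive 3 (0.988 with N+P C1 against 0.970 with the other Naive libraries), Sensitized 3 (0.973 with N+P C5 against 0.919), Sensitized 4 (0.955 against 0.937) and S+P C4 1 (0.923 against 0.869). Sensitized 1 lay nearer to S+P C4 (0.931) than to the other Sensitized libraries (0.868). Within the N+P mice, N+P C1 1 (0.982 against 0.981), N+P C1 3 (0.979 against 0.978) and N+P C5 1 (0.985 against 0.984) lay slightly nearer to the other sorted subset than to their own. Within the S+P mice, S+P C7 1 lay nearer to S+P C5 (0.959 against 0.954) and S+P C4 3 to S+P C7 (0.939 against 0.937). The Sensitized group thus held unlike libraries, and counts of calls that rest on it are given with and without Sensitized 3 and 4.

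The peaks are named by the distance of their midpoint from the Satb1 start. Inside the gene lay the 44.3 kb intron peak (chr17:52096154-52096521) and 3 promoter peaks, whose midpoints lay within 1000 bp of where a protein-coding Satb1 transcript begins. These were the 19.4 kb internal promoter peak (chr17:52120507-52121866), the 7.1 kb internal promoter peak (chr17:52133194-52133897) and the main promoter peak (chr17:52138384-52141435), which spans the gene start and overlaps the gene model Gm6934. The midpoints of these 3 lie in annotated exons, and all upstream peaks lie outside protein-coding genes. Upstream and within 100 kb lay the 43.1 kb (chr17:52183321-52184130), 46.4 kb (chr17:52185861-52188193), 70.5 kb (chr17:52210850-52211399) and 72.9 kb (chr17:52212930-52214116) peaks, the last pair in the lncRNA gene Gm20098. Farther upstream lay a second cluster, the 316.2 kb (chr17:52455941-52457788), 329.2 kb (chr17:52468691-52470994), 332.4 kb (chr17:52472594-52473425) and 335.0 kb (chr17:52475035-52476293) peaks, of which the 316.2 kb and 329.2 kb peaks overlap the lncRNA gene Gm19585 (the former also Gm65295). No member lay downstream of the gene. Of the members, 4 (33.3%) were over 100 kb from the start, against 892 peaks (6.59%) of the whole table, and 20 of the 8646 genes with a peak had more peaks than Satb1. Membership did not change when transcript starts replaced the gene start.

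The sequences at the midpoints of 4 upstream peaks and just upstream of the gene start are shown, because the 46.4 kb peak separated S+P C7 from S+P C5, the 72.9 kb peak had the largest fall of the near upstream peaks in S+P C7 against N+P C5, and the 329.2 kb and 335.0 kb peaks are neighbours that behaved differently. Each is read 5′ to 3′ from GRCm39, and capitals mark matches on either strand to CTTTGAN for TCF/LEF, TGANTCA for AP-1, TGTGGT for RUNX, GGAAGT for ETS, GGAAAA for NFAT, GGTGTGA for T-box, AGATAA for the factors named GATA and AGGGGGC for the CTCF core.
46.4 kb upstream peak, chr17:52186877-52187176, plus strand: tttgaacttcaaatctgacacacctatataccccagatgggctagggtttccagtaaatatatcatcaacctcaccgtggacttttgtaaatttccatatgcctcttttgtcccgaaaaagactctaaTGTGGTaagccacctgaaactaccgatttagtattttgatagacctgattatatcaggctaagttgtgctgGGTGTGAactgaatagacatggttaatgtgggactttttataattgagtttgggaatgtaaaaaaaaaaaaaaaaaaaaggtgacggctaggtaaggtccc
72.9 kb upstream peak, chr17:52213373-52213672, plus strand: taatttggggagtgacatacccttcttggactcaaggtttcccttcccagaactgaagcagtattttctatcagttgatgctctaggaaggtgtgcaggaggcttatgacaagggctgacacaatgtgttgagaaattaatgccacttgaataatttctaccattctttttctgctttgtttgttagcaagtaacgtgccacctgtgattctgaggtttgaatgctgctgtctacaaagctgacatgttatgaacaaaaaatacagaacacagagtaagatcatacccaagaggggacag
329.2 kb upstream peak, chr17:52469693-52469992, plus strand: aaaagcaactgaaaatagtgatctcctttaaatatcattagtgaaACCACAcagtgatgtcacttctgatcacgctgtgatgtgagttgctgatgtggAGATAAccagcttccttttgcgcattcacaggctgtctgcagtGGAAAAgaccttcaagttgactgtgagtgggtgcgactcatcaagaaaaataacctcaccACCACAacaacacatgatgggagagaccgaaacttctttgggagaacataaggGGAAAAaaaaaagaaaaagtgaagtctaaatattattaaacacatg
335.0 kb upstream peak, chr17:52475514-52475813, plus strand: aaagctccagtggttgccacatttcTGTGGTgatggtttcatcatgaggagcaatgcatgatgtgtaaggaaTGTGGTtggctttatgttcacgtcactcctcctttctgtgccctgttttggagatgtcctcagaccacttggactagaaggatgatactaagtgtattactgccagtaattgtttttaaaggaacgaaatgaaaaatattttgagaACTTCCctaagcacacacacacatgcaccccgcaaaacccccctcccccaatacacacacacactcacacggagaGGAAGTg
upstream of the Satb1 start, chr17:52140623-52140872, minus strand: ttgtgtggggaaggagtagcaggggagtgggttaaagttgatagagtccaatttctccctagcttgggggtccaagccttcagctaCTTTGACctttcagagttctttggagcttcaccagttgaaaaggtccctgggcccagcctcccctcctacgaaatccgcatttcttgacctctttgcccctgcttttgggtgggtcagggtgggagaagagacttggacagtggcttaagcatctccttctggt

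In windows of 300 bp at the peak midpoints, the RUNX letters occurred in 5 of the 12 members (44.3 kb, 43.1 kb, 46.4 kb, 329.2 kb and 335.0 kb), against 24.3% of all 13527 windows and 41.0% of the windows over 100 kb from a gene start. ETS letters were in 4 members (29.3% of all windows and 33.3% of those over 100 kb away), TCF/LEF in 3 (16.2% and 29.1%), NFAT in 2 (19.1% and 26.1%), GATA in 2 (7.90% and 16.3%), and AP-1 (9.17% and 18.0%), T-box (5.12% and 7.74%) and the CTCF core (10% and 3.14%) in 1 each. For every one of these motifs but the CTCF core the share was higher in the windows far from genes than in all windows. The AP-1 match of the 44.3 kb intron peak overlapped its TCF/LEF match. The 329.2 kb window held 2 RUNX, 2 NFAT and 1 GATA match, while the 335.0 kb window held 2 RUNX and 2 ETS matches and no NFAT or GATA letters. No letters of the 8 motifs were found in the 72.9 kb window, which says nothing about factors that bind elsewhere or to other letters. The 250 bases upstream of the start held 1 TCF/LEF match, a feature of 15% of the 250-base windows upstream of 21770 protein-coding genes. Members outside the main promoter peak were poor in G and C, between 40.4% (329.2 kb) and 50.3% (44.3 kb), against a median of 54.4% over all peaks and 62.1% in the main promoter peak.

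At 10 of the 12 peaks the group mean was highest in a Naive or N+P group and lowest in S+P C5 or S+P C7, whereas the 316.2 kb and 329.2 kb peaks did not have this order. Values are normalized counts, the reads of a peak divided by the size factor of its library, and are compared between peaks only per kb of peak length. The mean count of the 10 peaks in S+P C7 lay between 10.8% (44.3 kb) and 41.1% (main promoter) of the Naive mean, and in S+P C5 between 18.5% (70.5 kb) and 45.5% (main promoter). In Sensitized it lay between 49.8% (335.0 kb) and 76.3% (19.4 kb). Fewer cells with an open site and a less open site in every cell cannot be told apart in these bulk libraries.

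**Figure D1:**
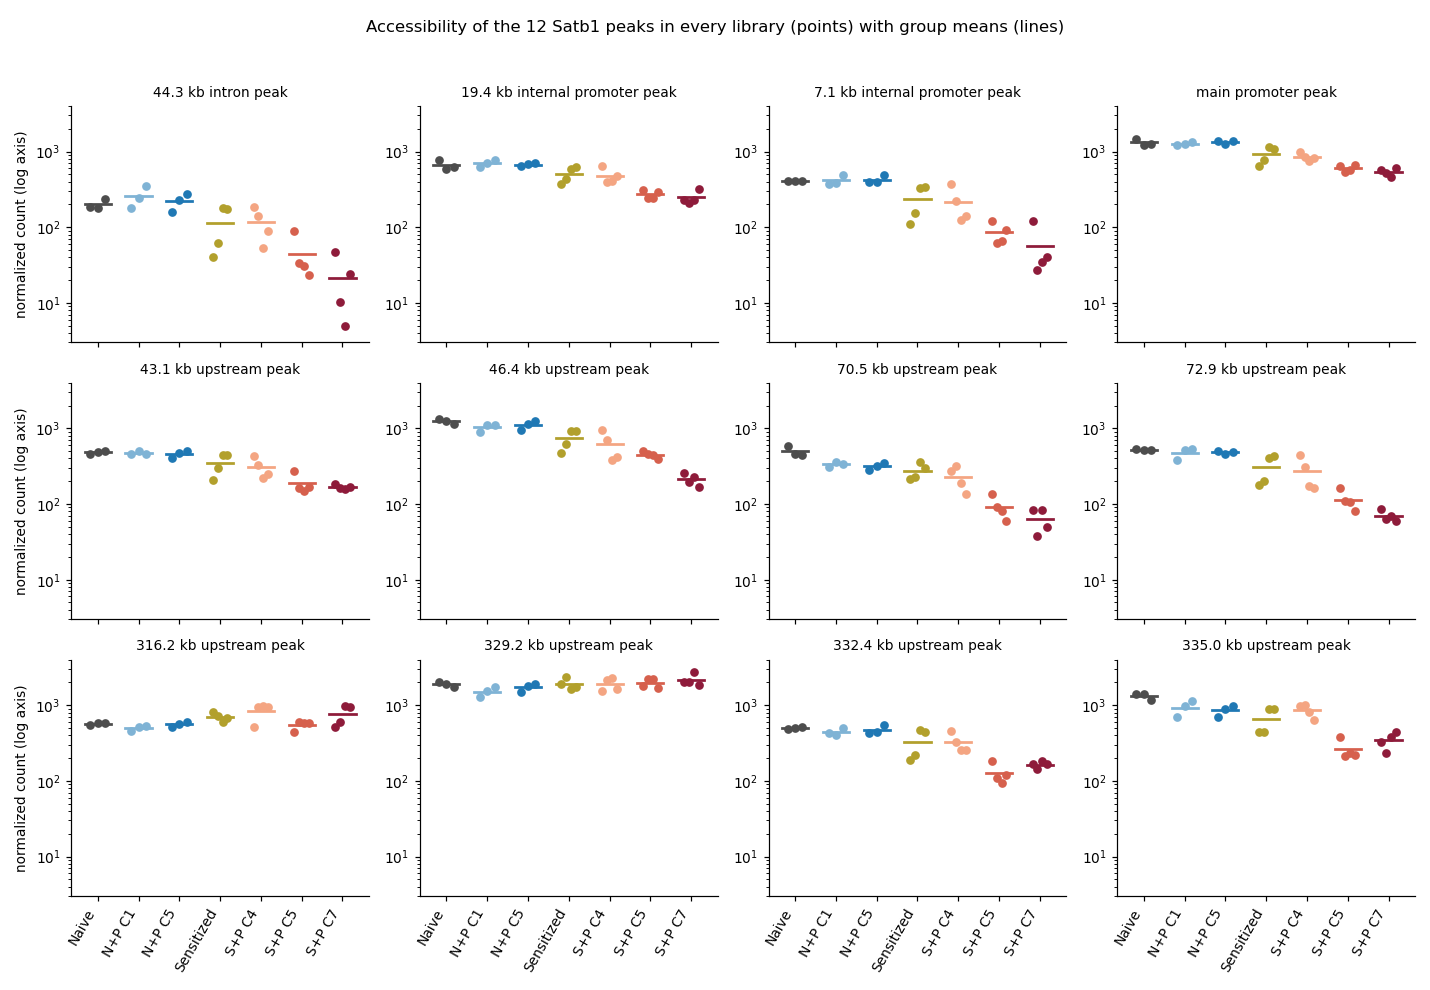
Normalized counts (log axis) of each of the 12 Satb1 peaks in the 25 libraries, 1 panel per peak; points are libraries and lines the group means. At 10 peaks the S+P C5 and S+P C7 points lie under the Naive points, and at the 316.2 kb and 329.2 kb peaks they overlap them.

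The main promoter peak covers the first start of Satb1. Its normalized counts were 1478, 1209.6 and 1269 in Naive, 1219, 1247 and 1319 in N+P C1 and 1358, 1242 and 1379 in N+P C5. They were 645, 770.5, 1147 and 1093 in Sensitized 1 to 4, 983, 859, 759.6 and 809 (S+P C4), 637, 534, 562 and 667 (S+P C5) and 572, 524, 464 and 609 (S+P C7). All S+P C5 and S+P C7 values lay below all values of the Naive, N+P and S+P C4 groups, and Sensitized 3 and 4 lay well above Sensitized 1 and 2.

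The 19.4 kb internal promoter peak lies between annotated starts of Satb1 transcripts and covers none, its midpoint being 744 bp from the nearest. It had 778, 584 and 630.3 in Naive, 624, 703 and 780.0 in N+P C1, 637, 676 and 699.8 in N+P C5 and 370.3, 436, 595 and 628 in Sensitized. In the S+P groups it had 647, 399.8, 407 and 473 (C4), 312, 243, 246 and 290.3 (C5) and 229, 211, 225 and 324 (C7). C5 and C7 overlapped each other and lay below every library of the other groups. The 7.1 kb internal promoter peak had 408, 408 and 409 in Naive, 374, 387 and 484 in N+P C1, 392, 392 and 487 in N+P C5 and 111, 153, 334 and 337 in Sensitized. In S+P mice it had 374, 225, 126 and 142 (C4), 122, 62.8, 66.4 and 91.1 (C5) and 122, 27.2, 34.8 and 40.0 (C7). Its Naive values spanned less than 2 counts, whereas the Sensitized values spanned from 110.8 to 336.8, and S+P C7 1 stood above the other S+P C7 libraries.

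The 44.3 kb intron peak, the one member inside the gene that is not at a start, had 186, 177 and 236 in Naive, 179, 241 and 349 in N+P C1 and 160.0, 230.3 and 278 in N+P C5. It had 39.8, 62.0, 180.0 and 174 in Sensitized, 187, 139, 52.3 and 88.7 (S+P C4), 88.3, 33.7, 31.1 and 23.1 (S+P C5) and 46.8, 10.2, 4.97 and 24.2 (S+P C7). All S+P C7 libraries lay below all Naive, N+P and S+P C4 libraries, and overlapped with Sensitized and S+P C5.

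The 46.4 kb peak is the longest of the near upstream peaks. It had 1338, 1256 and 1157 in Naive, 904, 1117 and 1100.2 in N+P C1, 953, 1142 and 1241 in N+P C5 and 476, 624, 924 and 927 in Sensitized. Its S+P values were 959.5, 705, 383 and 417 (C4), 504, 452, 446 and 389.6 (C5) and 256, 197, 227 and 166 (C7). It is the member at which every S+P C7 library lay below every S+P C5 library. Its neighbour at 43.1 kb had 464, 486 and 502 in Naive, 452, 495 and 454 in N+P C1, 409, 471 and 499 in N+P C5 and 205, 299.7, 444 and 446 in Sensitized. The S+P libraries had 425, 331, 221 and 249.7 (C4), 274, 161, 149.6 and 166 (C5) and 186, 163, 157 and 168 (C7). Here S+P C5 and S+P C7 overlapped.

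The 70.5 kb peak had 583, 460.3 and 441 in Naive, 312, 358 and 337 in N+P C1, 285, 322 and 354 in N+P C5 and 215, 224, 358 and 295 in Sensitized. Its S+P values were 272, 317, 192 and 136 (C4), 135, 90.3, 80.7 and 60.5 (C5) and 84.2, 37.5, 84.5 and 49.6 (C7). Its Naive libraries lay above every library of all other groups, the N+P groups included. The 72.9 kb peak, next to it, had 541, 514 and 519 in Naive, 383, 513 and 539 in N+P C1, 508, 459 and 493 in N+P C5 and 179, 203, 409 and 429 in Sensitized. Its S+P values were 442, 306, 173 and 162 (C4), 162, 109, 105 and 79.9 (C5) and 85.9, 63.0, 69.6 and 59.1 (C7). Its S+P C7 libraries lay below every library outside S+P C5, and overlapped with S+P C5 in a single library.

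The 329.2 kb peak is the longest of the far cluster. It had 2021, 1889 and 1721 in Naive, 1271, 1548 and 1728 in N+P C1, 1473, 1769 and 1931 in N+P C5 and 1880.5, 2389, 1637 and 1745 in Sensitized. In S+P mice it had 1541, 2143, 2287 and 1613 (C4), 1779.6, 2221, 2193 and 1713 (C5) and 2054, 2029, 2727 and 1821 (C7), and neighbouring groups in the order of their means overlapped throughout. The 316.2 kb peak ran from 453.5 to 596.4 in Naive and N+P, from 607.7 to 815.1 in Sensitized, from 510.4 to 988.8 in S+P C4, from 444.2 to 606.1 in S+P C5 and from 520.5 to 962.7 in S+P C7.

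The 335.0 kb peak is given in full although the selection rule did not name it, because the test of Sensitized against Naive turns on it. It had 1405, 1427 and 1180.4 in Naive, 691, 961 and 1134 in N+P C1, 704, 888 and 963 in N+P C5 and 441, 436, 899.5 and 889 in Sensitized. The S+P libraries had 977, 1007, 820.4 and 633 (C4), 385, 214, 233 and 219 (C5) and 331, 232, 374 and 447 (C7). All Naive libraries lay above all others, and S+P C5 lay below every library outside S+P C7. The 332.4 kb peak, between the 329.2 kb and 335.0 kb peaks, ran from 403.7 to 541.1 in Naive and N+P, from 189.8 to 464.4 in Sensitized, from 256.0 to 456.0 in S+P C4, from 93.3 to 180.9 in S+P C5 and from 144.7 to 180.6 in S+P C7.

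Per kb of peak, the Naive mean was highest at the 335.0 kb (1062), 70.5 kb (899) and 329.2 kb (815) peaks and lowest at the 316.2 kb peak (306). In S+P C7 the 329.2 kb peak stood at 937 and the 316.2 kb peak at 409, while the other 10 lay between 58.5 (44.3 kb and 72.9 kb) and 275 (335.0 kb). The 316.2 kb and 329.2 kb peaks, set apart after their values were seen, held 25.4% ± 0.547 (SD, n = 3) of the normalized counts of the 12 peaks in Naive, 24.1% ± 0.407 (n = 3) in N+P C1 and 26.4% ± 0.870 (n = 3) in N+P C5. Their share was 38.5% ± 11.0 (n = 4) in Sensitized, with 48.4% and 47.5% in Sensitized 1 and 2 against 28.1% and 30.0% in Sensitized 3 and 4. Among S+P cells it was 39.7% ± 9.64 in C4, 53.2% ± 6.63 in C5 and 60.4% ± 5.19 in C7 (n = 4 each). Over the same groups the summed count of the other 10 peaks ran from 7182 ± 422 in Naive to 1891 ± 219 in S+P C7.

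**Figure D2:**
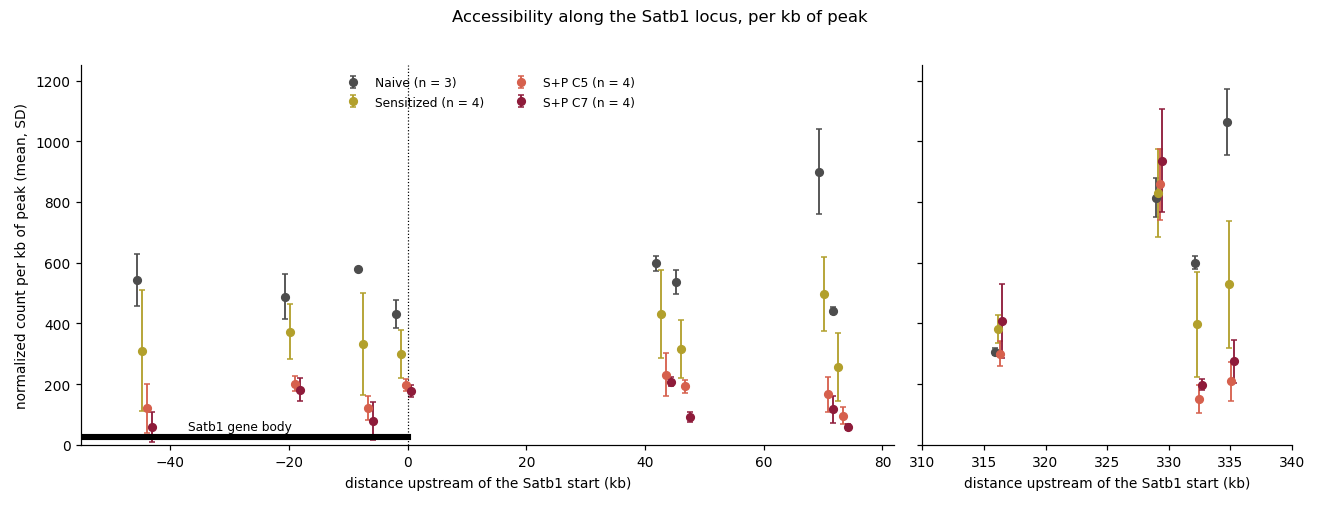
Mean normalized count per kb of peak (SD bars) against the distance upstream of the Satb1 start in kb, in S+P C5, S+P C7, Naive and Sensitized; the groups of a peak are drawn slightly side by side and the black bar is the gene body. The 329.2 kb peak stands at 815 per kb in Naive and 937 in S+P C7, while its neighbour at 335.0 kb stands at 1062 and 275.

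Across the 25 libraries, log2 values of the other 10 peaks rose and fell together, with Pearson's r between 0.781 and 0.969 over their 45 pairs (median 0.92). The 329.2 kb peak had r between −0.59 and −0.35 with them, the 316.2 kb peak between −0.49 and −0.08, and this pair had 0.52 with each other. These are descriptions over 25 libraries that share size factors and group differences.

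Sensitization without pregnancy was compared with Naive cells. Calls required both an adjusted p (DESeq2, over all 13527 peaks) under 0.1 and a log2 fold change beyond 0.9 in either direction, and a called peak is closing where the group named first is lower. Of the 12 peaks 1 closed, against 1.4% of all peaks, and 8 lay lower in all Sensitized than in all Naive libraries, against 10% of all peaks. The closing peak was that at 335.0 kb, with 1338 ± 136 (SD, n = 3) in Naive and 666 ± 263 (SD, n = 4) in Sensitized, which is −1.004 ± 0.27 on the log2 scale (adjusted p 0.00228). The main promoter peak had −0.53 ± 0.15, the 19.4 kb internal promoter peak −0.39 ± 0.19 and the 7.1 kb internal promoter peak −0.81 ± 0.43, none of them called, though the main promoter peak passed the p threshold (adjusted p 0.00577). The median log2 fold change of the 12 peaks was −0.68, against −0.01 over all peaks.

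That count depended on the Sensitized libraries. At 10 of the 12 peaks, Sensitized 1 and 2 both lay below Sensitized 3 and 4, for example 39.8 and 62.0 against 180.0 and 174 at the 44.3 kb intron peak, and at the 316.2 kb and 329.2 kb peaks both lay above them. Without Sensitized 3 and 4, 9 of the 12 peaks were closing, as were 5.73% of all peaks. The main promoter peak then had −0.90 ± 0.13 (adjusted p 3.57e-11), the 7.1 kb internal promoter peak −1.64 ± 0.45, the 46.4 kb peak −1.19 ± 0.26 and the 335.0 kb peak −1.61 ± 0.26. The 316.2 kb (0.44 ± 0.24) and 329.2 kb (0.18 ± 0.18) peaks were not called. Leaving out single libraries gave 0 calls without Sensitized 1 or without Sensitized 2, where the 335.0 kb peak missed the fold threshold, 4 without Sensitized 3, 3 without Sensitized 4 and 2 without Naive 2 or without Naive 3, with between 6.69% and 10.9% of all peaks called in either direction.

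**Figure D3:**
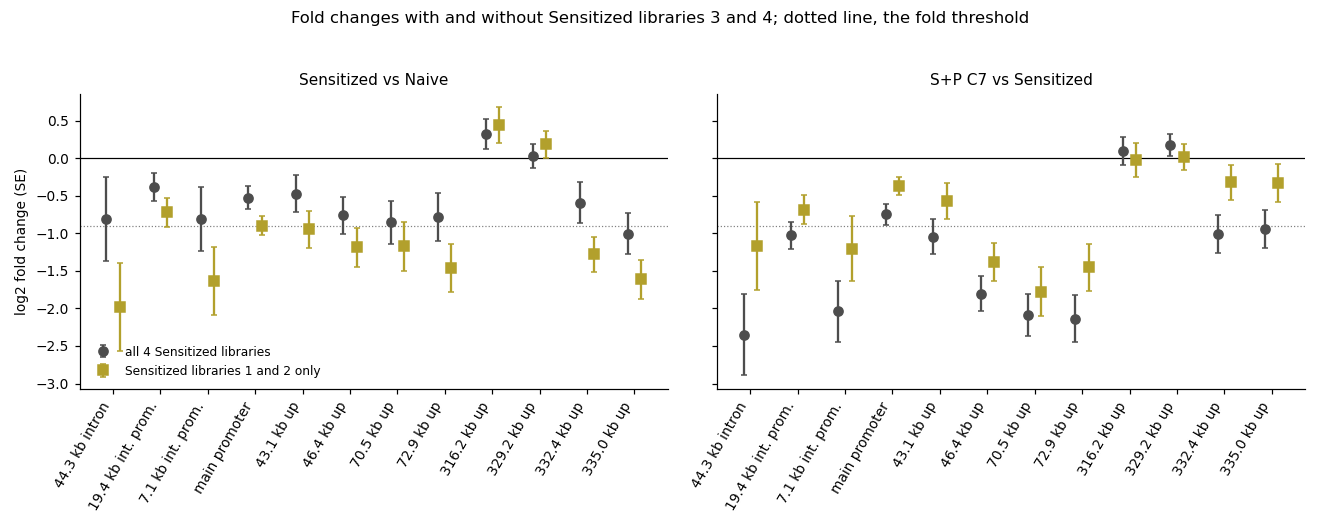
Log2 fold changes (SE bars) of the 12 peaks for Sensitized against Naive and S+P C7 against Sensitized, with all 4 Sensitized libraries (circles) and with libraries 1 and 2 only (squares); the dotted line is the fold threshold of −0.9. At all peaks but those at 316.2 kb and 329.2 kb the squares lie lower than the circles in the first panel and higher in the second.

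Pregnancy without a prior graft was compared with Naive cells in both sorted subsets. None of the 12 peaks was called in N+P C1 or in N+P C5 against Naive by DESeq2 or edgeR, where DESeq2 called 0.00739% (N+P C1) and 0.00739% (N+P C5) of all peaks, 1 peak in each. That count rose to 160 and 157 without Naive 3 and to 83 and 65 in a fit of the compared groups alone, and 0 of the 12 were called in either of these. The filter of DESeq2 on low counts left 7 and 8 of the 12 peaks, respectively, without an adjusted p. At an unadjusted p under 0.05, 0 of the 12 passed in N+P C1 and 2 in N+P C5, against 2571 and 2361 of all 13527 peaks. The promoter peaks stood at log2 fold changes between −0.06 (main) and 0.08 (19.4 kb) in N+P C1 and between 0.01 (main) and 0.05 (7.1 kb) in N+P C5. At the 7.1 kb peak the SE of N+P C5 against Naive was 0.46, although the SD of log2 values was 0.003 in Naive and 0.18 in N+P C5. In Sensitized and S+P C4, whose libraries enter the same estimate of spread, this SD was 0.81 and 0.71. All N+P libraries lay below all Naive libraries at 4 peaks in N+P C1 (13.4% of all peaks) and at 3 in N+P C5 (11.8%), and the 70.5 kb and 335.0 kb peaks were among them in both. Their log2 fold changes were −0.56 ± 0.31 and −0.53 ± 0.29 in N+P C1, and −0.63 ± 0.31 and −0.65 ± 0.29 in N+P C5, both against the same Naive libraries. Between the PD1+CD73+ and PD1- cells of N+P mice, 0 of the 12 peaks and 0% of all peaks were called by DESeq2, 0 of the 12 and 308 of all peaks passed an unadjusted p under 0.05, and edgeR called 0 of the 12. Their fold changes lay between −0.20 ± 0.60 (44.3 kb intron) and 0.19 ± 0.17 (329.2 kb) on the log2 scale.

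Pregnancy after sensitization was examined first in the PD1- cells. In S+P C4 against Sensitized, DESeq2 and edgeR each called 0 of the 12 peaks, against 0.858% of all peaks called by DESeq2, and 0 of the 12 passed an unadjusted p under 0.05, against 2526 of all peaks. The log2 fold changes lay between −0.28 ± 0.23 (46.4 kb) and 0.36 ± 0.25 (335.0 kb), and without Sensitized 3 and 4 between −0.17 ± 0.18 (329.2 kb) and 1.18 ± 0.56 (44.3 kb). Without Sensitized 3 and 4 the 335.0 kb peak was called as opening (0.97 ± 0.25, adjusted p 0.00639), as were 0.924% of all peaks. Against N+P C1, the PD1- cells of mice without a graft, 2 of the 12 peaks were closing in S+P C4, against 2.99% of all peaks. These were the 44.3 kb intron peak (−1.15 ± 0.56, adjusted p 0.0838) and the 7.1 kb internal promoter peak (−0.95 ± 0.43, adjusted p 0.0581). Both calls were lost at an adjusted p under 0.05 and when N+P C1 2, N+P C1 3, S+P C4 3 or S+P C4 4 was left out. Without S+P C4 1, the library that lay nearest to N+P C5 and the shallowest, 5 of the 12 were called, with 16.0% of all peaks. Without all 4 libraries that stood apart, 4 were closing and the 316.2 kb peak was opening (0.95 ± 0.18, against 0.78 ± 0.20 with all libraries), with 16.1% of all peaks called in either direction.

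The PD1+CD73- cells of S+P mice were compared with each of the other sorted subsets they can be set against, and with Sensitized cells. Against N+P C5, the PD1+CD73+ cells of mice without a graft, 10 of the 12 peaks were closing in S+P C7, against 10.6% of all peaks. The main promoter peak was 2.44-fold lower (−1.29 ± 0.16 on the log2 scale, adjusted p 4.73e-15) and the 46.4 kb peak 5.26-fold lower (−2.39 ± 0.25, adjusted p 1.92e-19). The largest falls were at the 44.3 kb intron peak (−3.31 ± 0.58), the 7.1 kb internal promoter peak (−2.90 ± 0.44) and the 72.9 kb peak (−2.81 ± 0.33). The 19.4 kb internal promoter peak fell by 1.43 ± 0.20, and the 43.1 kb, 70.5 kb, 332.4 kb and 335.0 kb peaks by 1.44 ± 0.25, 2.32 ± 0.30, 1.52 ± 0.28 and 1.29 ± 0.27, all on the log2 scale. The 316.2 kb (0.44 ± 0.20, adjusted p 0.0452) and 329.2 kb (0.32 ± 0.16, adjusted p 0.0672) peaks had the opposite sign and fell short of the fold threshold. These 10 calls held under all 17 alternatives tried, including each library left out in turn. Of all peaks, 20 had a lower log2 fold change than the 44.3 kb intron peak and 123 than the 7.1 kb internal promoter peak. The 44.3 kb intron peak is the shortest member, and its raw counts in S+P C7 1 to 4 were only 55, 6, 3 and 38. Its log2 fold change lay between −5.79 and −3.01 under the alternatives.

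**Figure D4:**
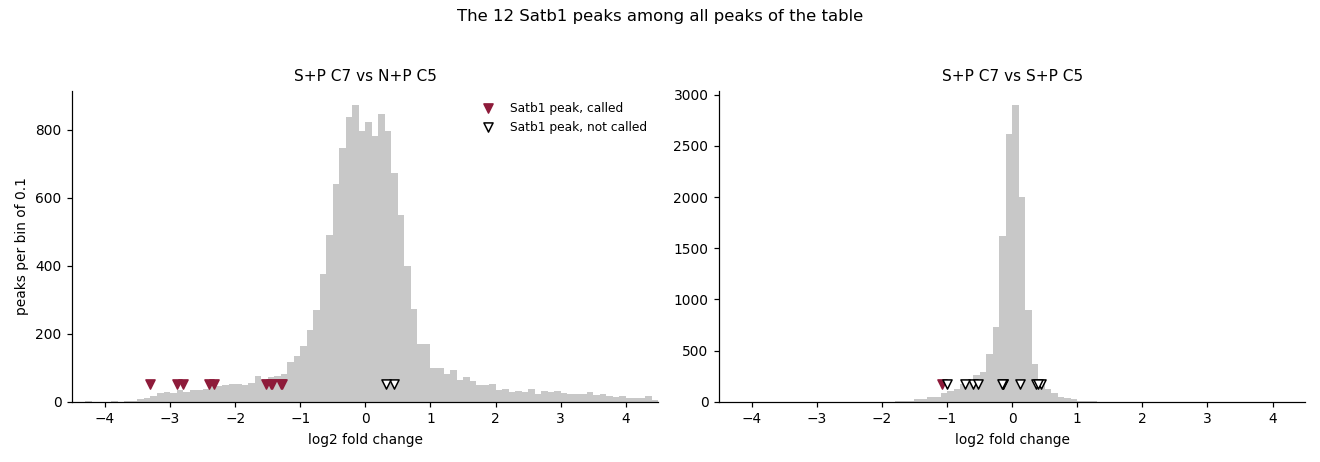
Histogram of the log2 fold changes of all 13527 peaks (grey, peaks per bin of 0.1) with the 12 Satb1 peaks as triangles, filled where called, for S+P C7 against N+P C5 and against S+P C5. In the first panel 10 members lie at −1.29 or lower and the other 2 at 0.32 and 0.44, and in the second 1 member is called.

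Against Sensitized cells, 9 of the 12 peaks were closing in S+P C7, against 8.03% of all peaks, and at 7 all S+P C7 libraries lay below all Sensitized libraries, against 13.1%. The 70.5 kb (−2.09 ± 0.28, adjusted p 8.43e-12), 72.9 kb (−2.13 ± 0.31, adjusted p 1.99e-10) and 46.4 kb (−1.80 ± 0.23, adjusted p 1.2e-12) peaks had the smallest adjusted p values. The 44.3 kb intron peak (−2.35 ± 0.54), the 7.1 kb internal promoter peak (−2.04 ± 0.41) and the 335.0 kb peak (−0.94 ± 0.25) were called although their libraries overlapped. The others called, at 19.4 kb, 43.1 kb and 332.4 kb, stood between −1.05 and −1.01. The main promoter peak had −0.75 ± 0.14 and missed the fold threshold. Without Sensitized 3 and 4, 4 of the 12 remained closing, as were 4.93% of all peaks: the 70.5 kb (−1.78 ± 0.33), 72.9 kb (−1.46 ± 0.31), 46.4 kb (−1.38 ± 0.25) and 7.1 kb (−1.20 ± 0.44) peaks. The 332.4 kb and 335.0 kb peaks then had −0.32 ± 0.23 and −0.33 ± 0.25. Both calls were lost when either library alone was left out, and the 335.0 kb call also without S+P C7 2.

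Within S+P mice, S+P C7 was compared with the PD1- cells. Of the 12 peaks 8 were closing, against 5.25% of all peaks: the 44.3 kb, 19.4 kb, 7.1 kb, 46.4 kb, 70.5 kb, 72.9 kb, 332.4 kb and 335.0 kb peaks. The 46.4 kb peak had −1.53 ± 0.24 (adjusted p 3.06e-08), the 70.5 kb peak −1.83 ± 0.29 and the 335.0 kb peak −1.30 ± 0.25. Of the uncalled peaks, the main promoter peak had −0.64 ± 0.15 and the 43.1 kb peak −0.84 ± 0.23, with adjusted p 0.000273 and adjusted p 0.00430, both short of the fold threshold. Without S+P C4 1, the 19.4 kb and 332.4 kb peaks were no longer called, and the former was also lost without S+P C7 1, 2 or 3.

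Between the PD1+ subsets of S+P mice, 1 of the 12 peaks was closing in S+P C7 against S+P C5, against 2.11% of all peaks. It was the 46.4 kb peak, at 212 ± 38.7 (SD, n = 4) in S+P C7 and 448 ± 46.9 (SD, n = 4) in S+P C5 (2.12-fold lower, −1.08 ± 0.23 on the log2 scale, adjusted p 0.000399). Its ratio of S+P C7 to S+P C5 in libraries of the same number lay between 0.426 and 0.509 in 4 of 4 numbers, and the call held under all 18 alternatives. The promoter peaks had −0.14 ± 0.15 (main), −0.14 ± 0.18 (19.4 kb) and −0.60 ± 0.41 (7.1 kb). The members of the far cluster stood higher in S+P C7, between 0.13 ± 0.15 (329.2 kb) and 0.45 ± 0.19 (316.2 kb), and were not called. With the replicate number as a block, which these libraries follow, 2 of the 12 were called, the second being the 44.3 kb intron peak (−1.11 ± 0.45, adjusted p 0.0622), with 3.27% of all peaks called in either direction. Without S+P C7 1, 3 were called, the 44.3 kb, 7.1 kb and 46.4 kb peaks, with 4.47% of all peaks.

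**Figure D5:**
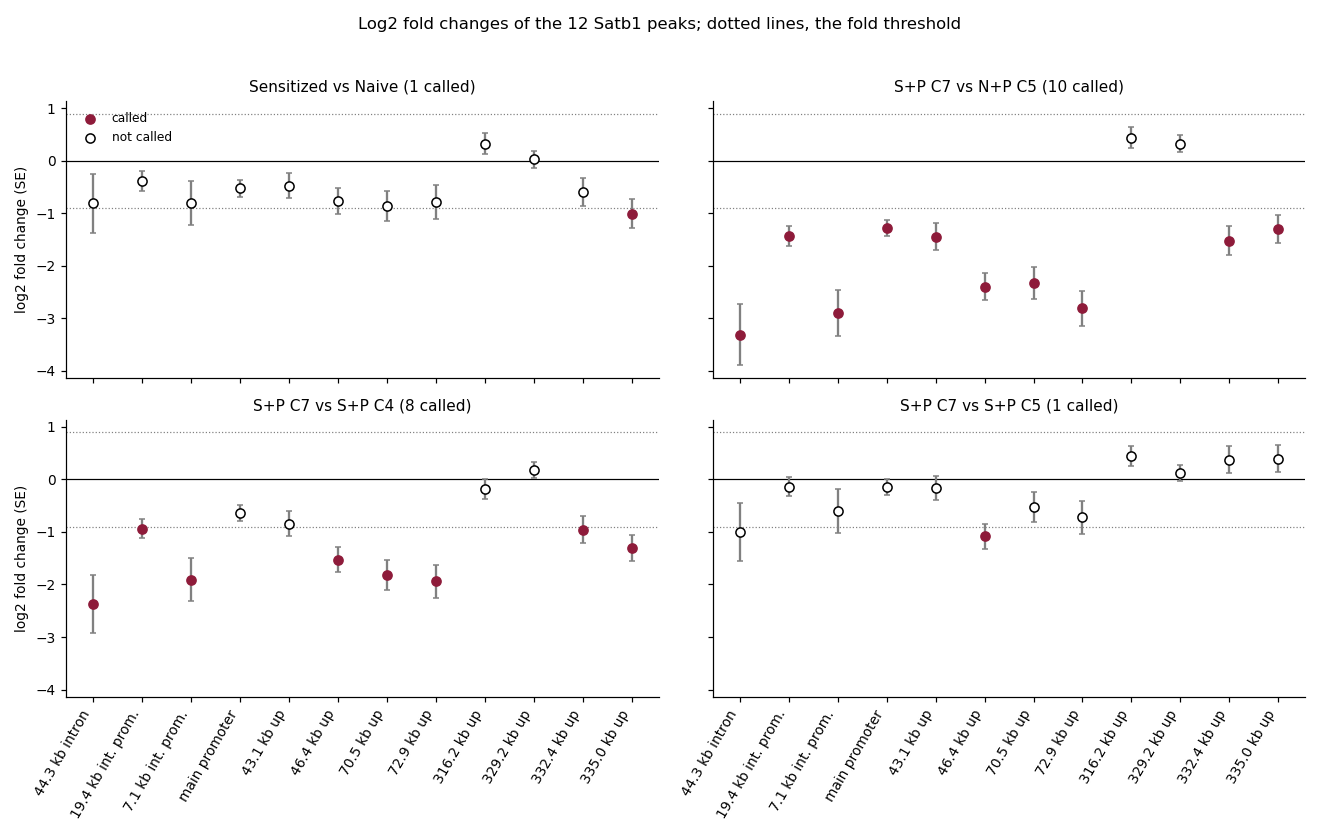
Log2 fold changes (SE bars) of the 12 peaks in order along the chromosome for 4 tested comparisons, filled where called; dotted lines are the fold thresholds of −0.9 and 0.9. The 316.2 kb and 329.2 kb peaks are open symbols in all 4 panels, and the 46.4 kb peak alone is filled for S+P C7 against S+P C5.

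The comparisons of S+P C5 chose the locus, so the counts of peaks past the thresholds, and the shares of all peaks beside them, only describe the values behind that choice and nothing is read from them. Against N+P C5, 10 of the 12 peaks passed the call thresholds as closing, as did 6.97% of all peaks, from −1.14 ± 0.15 at the main promoter to −2.32 ± 0.57 at the 44.3 kb intron peak. Against S+P C4, 6 of the 12 passed, as did 2% of all peaks, with −1.70 ± 0.25 at 335.0 kb and −0.50 ± 0.14 at the main promoter. Without S+P C4 1, 3 passed, with 4.01% of all peaks past the thresholds in either direction. Against Sensitized, 6 of the 12 passed, as did 3.67% of all peaks. These were the 44.3 kb (−1.35 ± 0.53), 7.1 kb (−1.44 ± 0.40), 70.5 kb (−1.57 ± 0.27), 72.9 kb (−1.41 ± 0.30), 332.4 kb (−1.38 ± 0.26) and 335.0 kb (−1.33 ± 0.25) peaks. Just short of the fold threshold stood the 19.4 kb (−0.89 ± 0.18) and 43.1 kb (−0.88 ± 0.23) peaks. Without Sensitized 3 and 4, 1 of the 12 passed, the 70.5 kb peak (−1.25 ± 0.32), as did 1.09% of all peaks as closing. The 335.0 kb peak then stood at −0.72 ± 0.25. The 46.4 kb peak had −0.44 ± 0.23 against S+P C4 and −0.72 ± 0.23 against Sensitized, both short of the fold threshold.

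The deposited peak lists, 1 for each group with the peaks that recurred among its libraries, held 8 of the 12 peaks in the list of Naive, 10 in that of N+P C1, 7 in N+P C5 and 5 in Sensitized, at an overlap of 1 bp or more. Of the S+P lists, that of C4 held 2, that of C5 held 1 and that of C7 held 2. The 329.2 kb peak was in all 7 lists, and was the 1 member in the S+P C5 list. Satb1's main promoter peak was listed for Naive and both N+P groups, and the 335.0 kb peak for every group but the PD1+ subsets of S+P mice. The 316.2 kb peak was listed for Sensitized and S+P C7. The list of S+P C4 was the shortest (3788 peaks) and that of S+P C5 the longest (11384). Between them lay N+P C5 (8479), N+P C1 (8602), Naive (8638), S+P C7 (8799) and Sensitized (9792). What share of the 13527 peaks each list holds was not worked out, so no difference between groups is read from the member counts. The 329.2 kb peak alone was listed at a q-value under 0.05, which 6.87% (Naive) to 28.8% (S+P C4) of a list met. Each list gives 1 value for its group, so no spread between libraries can be stated.

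The flanking genes each had 2 peaks. At the Kcnh8 peaks, which lie between the far cluster and Kcnh8, the log2 fold change of S+P C7 against N+P C5 was −2.87 and −2.79, both called. Of the Tbc1d5 peaks, on the other side of Satb1, the one at its start had −0.27 and was not called, and the other, between the genes, had −1.59 and was called.

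Over the 25 libraries, the non-member peaks most like the summed promoter peaks of Satb1 in log2 values were nearest to Extl2 (r 0.985), Gm19410 (0.982), Adgrl2 (0.981), Cxcr4 (0.979) and Wwox (0.978). The Cxcr4 peak, 10409 bp from the start of this chemokine receptor gene, went from a mean of 815 in Naive to 89.5 in S+P C7. Most like the summed far cluster were peaks nearest to Tnfaip3 (0.863), Fasl (0.834), Camk4 (0.832), Slx9 (0.824) and Sytl2 (0.806). These r values are the highest among 13515 peaks and share libraries, size factors and groups with Satb1. The summed far cluster joins the 316.2 kb and 329.2 kb peaks with the 332.4 kb and 335.0 kb peaks, which went different ways. Between these pairs r lay from −0.49 to −0.08, so likeness to the sum is not likeness to a single member.

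Of 17 regulators and receptors of naive and stem-like T cells, with 110 peaks in all, 39 peaks (35.5%) closed and 12 opened in S+P C7 against N+P C5, where 10.6% of all peaks closed and 11.4% opened, and the median log2 fold change was −0.47. Ccr7, the lymph node homing receptor, had 6 of 6 peaks closing, Il7r, the receptor chain for IL-7, 4 of 5, and Lef1, a transcription factor of naive cells, 6 of 13. Tcf7, which encodes TCF1, had 2 of 6 closing. Peaks opened as well as closed at Bcl11b (3 opening and 2 closing of 11), Bach2 (2 and 6 of 13), Foxp1 (2 and 5 of 15), S1pr1 (2 and 3 of 11) and Lef1 (1 opening), and 1 peak opened at each of Klf2 and Myb. In Sensitized against Naive, 10 of the 110 peaks closed and 4 opened, where 1.4% of all peaks closed and 7.22% opened. Without Sensitized 3 and 4, 22 closed and 10 opened, where 5.73% of all peaks closed and 9.44% opened. In S+P C7 against S+P C5, 13 of the 110 closed (11.8%), against 2.11% of all peaks. Against Sensitized, 32 closed and 3 opened in S+P C7 (8.03% and 3.84% of all peaks), or 26 and 2 without Sensitized 3 and 4 (4.93% and 2.03%), and against S+P C4, 23 closed (5.25% of all peaks). For the PD1- cells, 2 closed and 9 opened in S+P C4 against N+P C1 (2.99% and 9.62% of all peaks), a smaller closing share than over all peaks. Against Sensitized 1 closed in S+P C4 (0.296% of all peaks), and also 1 without Sensitized 3 and 4 (1.38%). Of 18 genes linked to SATB1 in T cells, 10 had a peak, 45 peaks in all. In S+P C7 against N+P C5, 5 of the 45 closed (11.1%) and 14 opened (31.1%), where 10.6% of all peaks closed and 11.4% opened. The closing share was thus near that of all peaks. Among the opening peaks were 3 of 5 at Pdcd1, where the median log2 fold change was 3.05, and 5 of 6 at Runx3, which encodes a factor of CD8 T cells. The closing peaks were 2 of 7 at Bcl2 and 1 each at Cd4, Bcl6 and Myc, and Myc also had 1 opening. In S+P C7 against Sensitized, 3 of the 45 closed and 5 opened, where 8.03% of all peaks closed and 3.84% opened, and without Sensitized 3 and 4, 2 closed and 1 opened (4.93% and 2.03% of all peaks). In Sensitized against Naive 7 opened (7.22% of all peaks), or 9 opened and 1 closed without Sensitized 3 and 4 (9.44% and 5.73%), and in S+P C7 against S+P C4 4 opened (2.48% of all peaks). In S+P C4 against N+P C1, 1 closed and 12 opened (2.99% and 9.62% of all peaks).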

How the data were processed

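ATAC-seq libraries of sorted CD8+ T cells (25 in 7 groups) were analysed from 1 table of raw counts and 7 peak lists. According to the submitters' processing notes and the study's methods, the authors trimmed paired reads with cutadapt 3.4, aligned them to GRCm39 with Bowtie2 2.2.9, removed non-unique reads and duplicates (Picard 2.21.8), called peaks per library with Genrich 0.6.1 and kept peaks recurring within a group. Reads of duplicates and repeats are therefore missing from the counts. The deposited table holds whole-number counts per merged peak, not normalized. The deposited lists hold scores and a q-value, among others, for each peak, 1 list for each group.

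Counts in peaks ran from 2430890 to 25419715 per library (median 8197552), and the shallowest library is the least precise. All replicate pairs differed by more than counting noise (chi-square per degree of freedom of at least 2.81). Counts of all 13527 peaks were fitted once over 25 libraries with DESeq2 1.42.0 (R 4.3.3; median-of-ratios size factors, group as the only term, Wald test), and p-values were adjusted over all peaks by the method of Benjamini and Hochberg for each comparison. The thresholds of a call are those of the study's methods, an adjusted p below 0.1 together with a log2 fold change of more than 0.9 up or down. On simulated counts for Sensitized against Naive, with 200 of 13527 peaks changed, this fit recovered 1.5% at 1.5-fold, 74% at 2-fold and 99% at 3-fold. A change of 1.5-fold lies under the fold threshold, so few calls could be made there. Simulated libraries of a group shared the same mean and dispersion at a peak, whereas the real Sensitized libraries were unlike each other. These shares therefore check the fit and do not carry over to the real comparison. Tables were handled with pandas 2.3.3 and scipy 1.17.1.

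The peaks of the locus, the gene lists, the marker lists and the tests were chosen with earlier results of these data known. Values in every library are given for promoter peaks, for up to 8 peaks called in a tested comparison (smallest adjusted p first) and for the peak with the highest mean count in each position class. Fold changes are named for called peaks and for promoter peaks, and others named were chosen after their values were seen. Likeness is Pearson's r of log2(normalized count + 1) among peaks with a mean of at least 50. Alternatives were other size factors (TMM, total counts, loess), edgeR 4.0.16 (quasi-likelihood), only the groups compared, a filter at a mean of 50, no independent filter, other thresholds, a replicate block and each library left out. Libraries of the same number deviated together (r over 0.1 in every pair) in S+P C7 against S+P C5 (0.522 to 0.771), S+P C5 against S+P C4 (0.103 to 0.572) and N+P C5 against N+P C1 (0.108 to 0.400), which comes from the data, not from the labels.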

Additional observations from a re-analysis of the deposited data

Results flagged for a closer look

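In 48 sets of 4 libraries (12 peaks in 4 groups), 7 values stood far from the others of their group by Dixon's criterion, which chance alone meets in about 1 in 20 independent sets. The sets share libraries, and 10 of the peaks rose and fell together, so the count of 7 cannot be set against that rate. Library S+P C5 1, the deepest, accounted for 4 of the 7 values: normalized counts of 88.3 at the 44.3 kb intron peak, 273.9 at the 43.1 kb peak and 385.02 at the 335.0 kb peak were the highest of S+P C5, and 444.2 at the 316.2 kb peak was the lowest. S+P C4 1, the shallowest library, was the lowest of S+P C4 at the 316.2 kb peak (510.4). S+P C7 1 was the highest of S+P C7 at the 7.1 kb internal promoter peak (121.6), and S+P C7 4 at the 19.4 kb internal promoter peak (324.2). Whether depth plays a part in these values was not tested.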

How the results depend on the processing

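Counts are of the 12 Satb1 peaks that were called. Of 31 calls in tested comparisons, 21 were made under every alternative, 10 were lost under at least 1, and 0 changed sign. Fold changes that were not called could change sign, as at the 46.4 kb peak in S+P C4 against Sensitized, from −0.28 to 0.15 without Sensitized 3 and 4. In Sensitized against Naive, 1 peak was called, but 5 with no fold threshold, 3 with loess offsets, 9 without Sensitized 3 and 4 and 9 without the 4 libraries that stood apart, the last pair of alternatives being chosen after seeing the data. In that order, 1166, 2777, 1068, 2052 and 2054 of all 13527 peaks were called. Under the last 2 of these settings the counts were 1 and 1 in S+P C4 against Sensitized (312 and 267 of all peaks). They were 4 and 4 in S+P C7 against Sensitized (942 and 951), and 1 and 1 in S+P C5 against Sensitized (439 and 457). In S+P C4 against N+P C1, 2 were called, but 0 at an adjusted p under 0.05, 9 with no fold threshold and 5 without the libraries that stood apart. In that order, 1706, 1633, 7172 and 2179 of all 13527 peaks were called. With no fold threshold, 10 passed in S+P C5 against Sensitized (4454 of all 13527 peaks) and 10 in S+P C5 against S+P C4 (1797 of all peaks). With the replicate number as a block, 2 were called in S+P C7 against S+P C5. For pairs that share only a number, the block gave 6 in Sensitized against Naive, where same-numbered libraries had r between 0.03 and 0.20, and 1 in S+P C4 against N+P C1 (r between −0.12 and 0.13), and it moved no other count by over 1.5 times. Of all peaks, the block called 443 in S+P C7 against S+P C5, 1469 in Sensitized against Naive and 1549 in S+P C4 against N+P C1. Without the block these were 322, 1166 and 1706. The next counts are for leaving out 1 library at a time, with the share of all peaks called in either direction in brackets. This gave 0 to 4 called in Sensitized against Naive (6.69% to 10.9%), 7 to 9 in S+P C7 against Sensitized (10.3% to 14.5%) and 6 to 9 in S+P C7 against S+P C4 (5.75% to 9.60%). It gave 1 to 3 in S+P C7 against S+P C5 (1.30% to 4.47%), 0 to 5 in S+P C4 against N+P C1 (9.99% to 16.0%), 10 to 10 in S+P C7 against N+P C5 (21.3% to 23.2%), and 0 to 0 in the other tested comparisons (0% to 1.94%). In the comparisons that chose the locus, whose counts here and above are descriptions only, it gave 5 to 8 in S+P C5 against Sensitized (4.61% to 9.29%), 10 to 10 against N+P C5 (16.2% to 18.7%) and 3 to 7 against S+P C4 (3.60% to 6.19%), the 3 without S+P C4 1. The deposited lists held members 35 times, and 7 times at a q-value under 0.05, each time the 329.2 kb peak. Why these counts moved was not tested.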
